A study of Danio rerio with 8 samples.

Results

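The effect of losing the zinc exporter genes slc30a1a and slc30a1b was described here as it appeared at both sampled stages of zebrafish development. All 8 libraries of the series were used, 4 from mutants and 4 from controls, joined by gene identifier over a 2 dpf (days post fertilization) table and a 2.5 dpf table. Of 25926 genes in both tables, 16703 had a mean of at least 0.5 FPKM, a fragment count scaled by transcript length and library total, over the 8 libraries and were tested. A gene was called at an adjusted p under 0.05 from limma, with genotype and stage as additive terms on log2(FPKM + 1), and log2 fold changes are mutant minus control on that scale. A gene was counted as shared by both stages when it was called and when both mutant libraries lay on that same side of both control libraries at 2 dpf and again at 2.5 dpf. There were 1487 such genes, 1162 higher and 325 lower in mutants.

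The cells were sorted by fluorescence for the sox10:kikGR transgene, which marks neural crest cells and their derivatives, and dead cells were removed with a dye before SMART-seq of the pooled RNA. The 4 groups were control 2 dpf, mutant 2 dpf, control 2.5 dpf and mutant 2.5 dpf, with 2 libraries each. Mutants were slc30a1a-/-;slc30a1b-/- double homozygotes made by CRISPR/Cas9, and controls were their siblings, all carrying the same sox10:kikGR transgene. For its later experiments the study bred parents that were slc30a1a+/- and slc30a1b-/-, and siblings from such a cross all lack slc30a1b and differ only in slc30a1a. That the sorted embryos came from this cross is not stated for these libraries, nor is the number of embryos in each. Nothing says that 2 libraries of a group came from separate clutches, so the p-values measure only the spread between these libraries, which may be technical. An exact permutation test within the stages cannot go below a two-sided p of 0.0556 with these 8 libraries, so single genes were tested only by the fit across all genes.

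Slc30a1 exports zinc from the cytosol across the plasma membrane. Free zinc is sensed by the transcription factor Mtf1, which drives metallothionein genes whose small proteins bind the metal. Neural crest cells leave the dorsal neural tube and, in the head, fill the pharyngeal arches. There, dorsal Jagged-Notch signaling and ventral Endothelin1, Bmp and Dlx signaling set the pattern of the future jaw cartilages.

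The targeted gene slc30a1a (ENSDARG00000005463) was lower in every mutant library. Its levels were 12.1 and 11.7 FPKM in the controls and 5.96 and 7.06 FPKM in the mutants at 2 dpf, and 8.56 and 11.2 FPKM in the controls and 5.44 and 4.98 FPKM in the mutants at 2.5 dpf. Both mutant libraries lay below both controls at each stage, with a log2 fold change of -0.79 ± 0.12 (SE) and a limma adjusted p of 0.00754. The size of the difference was alike at the 2 stages, at -0.79 at 2 dpf and -0.80 at 2.5 dpf. The second target, slc30a1b (ENSDARG00000053896), was at 0 to 0.14 FPKM in all 8 libraries and was not tested, so its transcript gives no check of the genotype. By qPCR of cells from embryo heads, the paper reported more slc30a1b in sox10+ than in sox10- cells. Why its level was near 0 in these libraries, controls included, was not tested.

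The 8 libraries held 22265 to 24067 genes above 0, and the 10 most abundant genes took 19.4 to 26.6% of their summed FPKM. The transcript of sox10 was present at 47.6 to 156 FPKM in every library (log2 fold change -0.36, limma adjusted p = 0.287), with foxd3 and tfap2a, other early neural crest genes, also uncalled. The defining crest transcript crestin stood at only 0.18 to 0.51 FPKM. Transcripts of other cell types were abundant, with the neutrophil lysozyme gene lyz at 9037 to 39656 FPKM, the embryonic globin hbbe1.3 at 1048 to 9063 FPKM and the lens crystallin crybb1 at 1.28 to 116 FPKM, whereas the lens crystallin cryaa reached at most 0.02 FPKM and the muscle myosin myhz2 at most 0.64 FPKM. In these bulk libraries, fewer cells of a type and less RNA per cell cannot be told apart.

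Genes called higher in mutants outnumbered those called lower. Of the 16703 genes tested, 1505 were called (9.01%), 1173 of them higher (7.02%) and 332 lower (1.99%), and 4301 had an unadjusted p under 0.05. The 4301 were not split by direction. Counts of list members by unadjusted p, given below, are to be read against 4301 of 16703. Without regard to the test, mutants and controls were separated in the same direction at both stages in 3782 genes (22.6%), 2911 above (17.4%) and 871 below (5.21%). Of the called genes, 18 failed this second condition, which left the 1162 shared rises (6.96%) and 325 shared falls (1.95%). The balance between directions depended on how the libraries were scaled. Over the 16703 genes, the median log2 fold change was 0.089 as deposited, and after rescaling each library by its median ratio it was -0.03. That rescaling called 692 genes as rises and 554 as falls (55.5% rises, against 77.9% as deposited). It also turned the balance of the genes separated at both stages, to 1760 above and 1878 below. Quantile normalization gave 794 higher and 548 lower (59.2% higher). Of the 1487 shared genes, 975 were called in the same direction under both rescalings, 659 higher and 316 lower, and no shared gene changed sign under either rescaling. Under the other alternatives the sign could not change, because shared genes were chosen for same-side separation at both stages. The call of 541 of the 1487 held without each library in turn.

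The shared rises had a median log2 fold change of 0.71, and the shared falls of -0.91. A rise above 1 on the log2 scale was seen in 254 genes, above 2 in 40 and above 3 in 15, and a fall below -1 in 131 and below -2 in 22. Across all tested genes, the effect at 2 dpf and the effect at 2.5 dpf, which share no library, had a Pearson r of 0.62 and a Spearman rho of 0.53 (16703 genes, which are not independent replicates). The effect was the larger at 2 dpf in 754 of the 1162 rises and in 113 of the 325 falls, and the median of all tested genes also lay higher at 2 dpf (0.17, against 0.02 at 2.5 dpf), a shift in the same direction as both counts. A test of the interaction of genotype and stage called 0 genes by limma (smallest adjusted p 0.475), and 902 genes (5.4%) had an unadjusted p under 0.05. Among the shared genes these were 66, or 4.44%. Choosing genes by same-side separation at both stages and a small spread around the additive fit itself lowers this share. The 2 shares therefore say nothing on whether the effects were equal. With 2 libraries per group, the lack of calls does not show that the effects were equal.

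**Figure D1:**
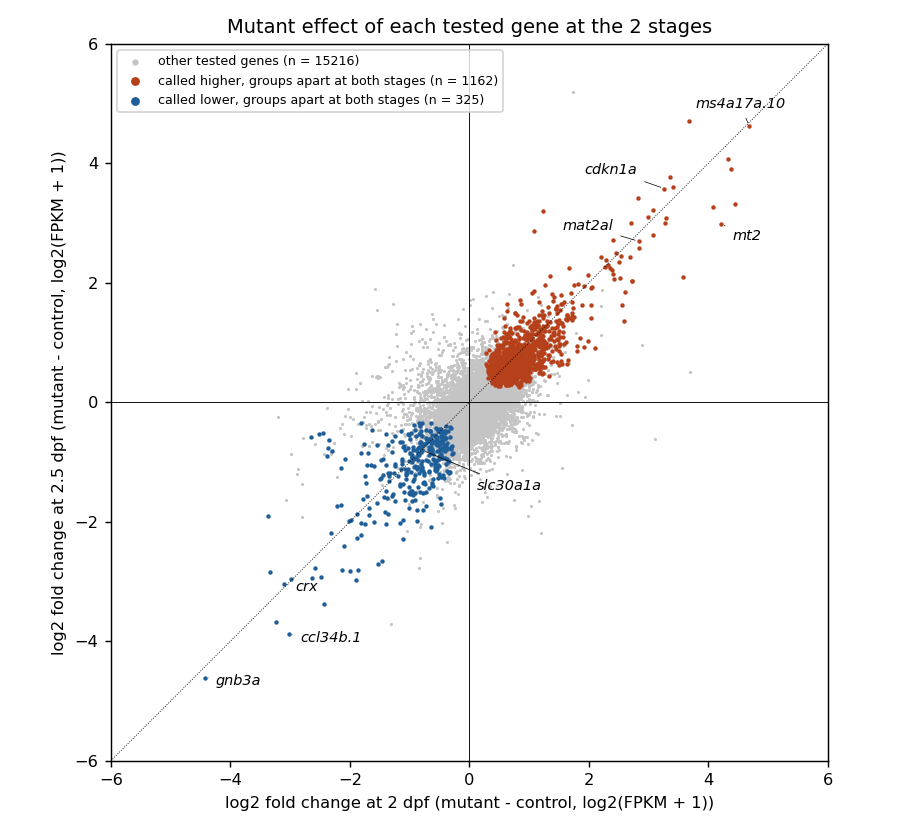
Log2 fold change of each tested gene at 2 dpf (horizontal) and at 2.5 dpf (vertical), mutant minus control on log2(FPKM + 1), with the 1162 shared rises in red, the 325 shared falls in blue and other genes in grey. Of the labelled genes, ms4a17a.10, cdkn1a and gnb3a lie near the dotted line of equal effects. Others lie further from it, such as mt2 (4.22 at 2 dpf, 2.99 at 2.5 dpf) and ccl34b.1 (-3.02 and -3.88).

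The membrane protein gene ms4a17a.10 (ENSDARG00000093546) led the 15 largest rises, at 0.92 and 0.90 FPKM in the controls and 49.7 and 46.8 FPKM in the mutants at 2 dpf, and at 1.90 and 0.54 against 39.0 and 66.8 FPKM at 2.5 dpf. The 4 mutant levels were far above all 4 controls, a log2 fold change of 4.66 ± 0.22 (SE, limma adjusted p = 3.33e-05). Isg15, a ubiquitin-like protein known for its induction by interferon, followed with 0.74, 0.60, 1.52 and 0.47 FPKM in the controls and 34.3, 31.1, 16.9 and 57.1 FPKM in the mutants (2 dpf first, log2 fold change 4.20, limma adjusted p = 0.0003). Its mutant libraries spread most at 2.5 dpf, yet the lowest was above every control.

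The forkhead factor gene foxi1, needed in zebrafish for the ear and for pharyngeal arch development, was at 0.26, 0.23, 0.60 and 1.22 FPKM in controls and at 20.2, 20.1, 12.6 and 23.2 FPKM in mutants (log2 fold change 3.68). Ghrh, which encodes growth hormone-releasing hormone, was at 0.52 to 0.66 FPKM in the 4 controls and at 9.23 to 21.3 FPKM in the 4 mutants (log2 fold change 3.15). The smallest adjusted p of all genes belonged to the unnamed locus si:ch211-92l17.1, at 0.93 to 1.11 FPKM in controls and 19.9 to 25.6 FPKM in mutants (log2 fold change 3.51, limma adjusted p = 8.96e-06). Other unnamed loci among the 15 largest rises were si:ch211-196h16.12 (4.19), CR352342.1 (4.15), AL645792.2 (3.57), zgc:66313 (3.19), si:ch211-226l4.6 (3.13), BX537288.1 (3.12) and CR925709.2 (3.05), where the values are log2 fold changes. The remaining 3 of the 15, fthl28, mt2 and cdkn1a, belong to the metal and DNA damage groups described next. All 15 calls held in all 16 alternative settings.

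Further members of the ms4a17a family moved with ms4a17a.10, though not all in its direction. Of 12 tested identifiers of the family, 8 were called higher and 2 lower, against 7.02% higher and 1.99% lower of all tested genes. The second identifier with the symbol ms4a17a.10 (ENSDARG00000095695) fell instead, from 36.6, 56.1, 56.0 and 43.7 FPKM in controls to 10.3, 26.4, 26.1 and 21.1 FPKM in mutants (log2 fold change -1.22, limma adjusted p = 0.0278). The family was singled out after its values were seen, and how reads shared by near-identical copies were divided was not tested. In the gene order of RefSeq GRCz12tu, ms4a17a.2, ms4a17a.1, ms4a17a.7 and ms4a17a.3 were 4 successive tested genes that were all shared rises, the longest such run.

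**Figure D2:**
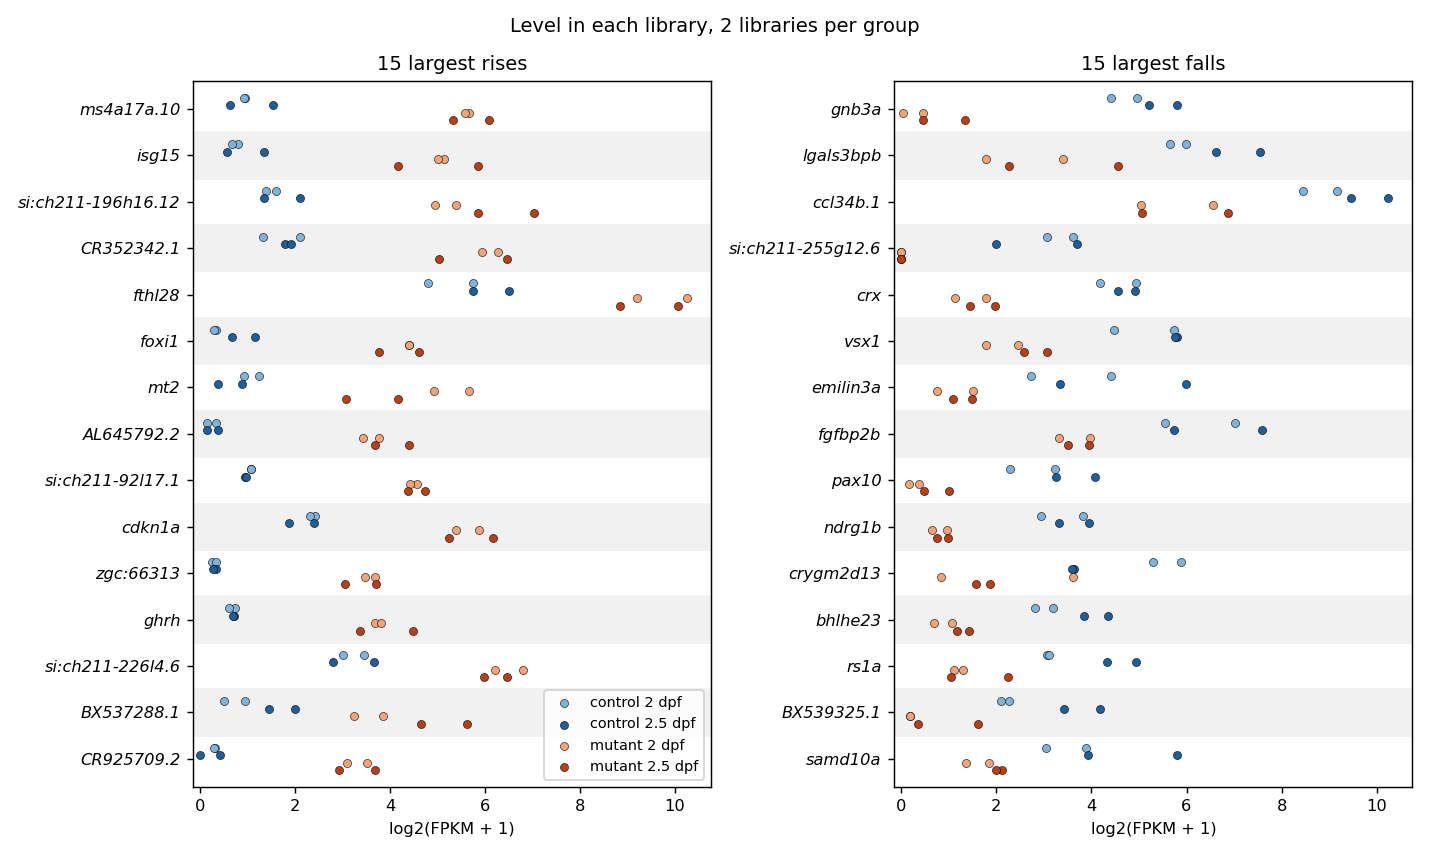
Level of the 15 genes with the largest shared rise (left) and the 15 with the largest shared fall (right) in each library, as log2(FPKM + 1), with 1 point per library and colors for the 4 groups. Mutant and control points are separate at both stages for every gene, as the choice of genes required. In crygm2d13 alone, the higher 2 dpf mutant (11.1 FPKM) reaches the level of the 2.5 dpf controls (11.5 and 11.1 FPKM).

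Among genes of zinc and iron handling, a metallothionein and ferritin genes were higher in mutants. The metallothionein gene mt2 (ENSDARG00000041623) was at 0.88 and 1.36 FPKM in controls and 29.3 and 49.8 FPKM in mutants at 2 dpf, and at 0.30 and 0.84 against 7.41 and 16.9 FPKM at 2.5 dpf. All 4 mutants stood above all 4 controls, with a log2 fold change of 3.60 ± 0.34 (SE, limma adjusted p = 0.000632). The fold change was 4.22 at 2 dpf and 2.99 at 2.5 dpf on the log2 scale, a difference with an unadjusted limma p of 0.0607. The study singled out a metallothionein gene, which it calls mt, on these same samples, so the direction of mt2 is not independent evidence. It also reported higher mt by qPCR of mutant sox10+ cells at both stages, and by in situ hybridization in ventral arches at 2.5 dpf. With a fluorescent zinc indicator it measured more zinc in mutant sox10+ cells at 2 dpf. In whole embryos, by contrast, it reported less zinc in mutants by mass spectrometry. Ferritin-like loci, whose proteins resemble the iron-storage subunits, rose as well, and fthl28 was the most abundant of those called, at 26.8, 53.01, 52.7 and 89.6 FPKM in controls and 585, 1221, 459 and 1066 FPKM in mutants (log2 fold change 3.89, limma adjusted p = 0.00103).

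The other rising ferritin-like loci were fthl27 (ENSDARG00000116586), at 5.86 to 21.7 FPKM in controls and 29.5 to 130 FPKM in mutants (log2 fold change 2.84), and fthl29, at 3.87 to 8.43 against 33.8 to 64.5 FPKM (log2 fold change 2.95), the latter named after its values were seen. All 7 tested identifiers of the fthl family had a log2 fold change above 0, and 3 were called. The second identifier with the symbol fthl27 (ENSDARG00000031776) was far more abundant, at 1024 to 1548 FPKM in controls and 1235 to 2130 FPKM in mutants, and was not called (log2 fold change 0.44, limma adjusted p = 0.128). The main ferritin gene fth1a (0.11), the zinc sensor gene mtf1 (0.04), the heme oxygenase gene hmox1a (0.00) and the iron exporter gene slc40a1 (-0.21, all log2 fold changes) were not called either. In all, 3 of 14 tested identifiers of the list for metal response and iron storage were called, all higher (21.4%, against 9.01% of all tested genes), and 6 with replicate number as a block. Of the 7 zinc importers tested, slc39a6 alone was called, at 8.12, 7.90, 13.7 and 12.4 FPKM in controls and 19.9, 19.7, 24.7 and 22.3 FPKM in mutants (log2 fold change 1.01, limma adjusted p = 0.00257). No zinc exporter other than slc30a1a was called among the 8 tested, and slc30a10 came nearest (log2 fold change 0.75, limma adjusted p = 0.0662), while with the replicate block 1 exporter was called higher.

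Genes of the DNA damage response, which serve cell cycle arrest, repair and cell death after stress, held many called members. Of 17 tested, 8 were called higher and 1 lower (52.9%, against 9.01% of all tested genes), with a median log2 fold change of 0.50 against 0.089. The count was again 8 higher and 1 lower under both rescalings, and 7 or 8 higher when any single library was left out.

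The cyclin-dependent kinase inhibitor gene cdkn1a (ENSDARG00000076554), which encodes p21, was at 4.34 and 3.97 FPKM in controls against 57.9 and 40.6 FPKM at 2 dpf, and at 2.65 and 4.24 against 36.9 and 71.3 FPKM at 2.5 dpf. Its mean level was 11.9-fold higher in mutants at 2 dpf and 15.7-fold higher at 2.5 dpf (log2 fold change 3.42 ± 0.23 SE, limma adjusted p = 0.000158). The gene of cyclin G1, ccng1, a damage-induced gene, was at 157 and 130 FPKM in controls against 817 and 701 FPKM at 2 dpf, and at 69.3 and 85.6 against 340 and 350 FPKM at 2.5 dpf (log2 fold change 2.27).

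Rps27l, a ribosomal protein paralog, was the most abundant member, at 214, 255, 347 and 212 FPKM in controls and 1956, 1455, 1243 and 2117 FPKM in mutants (log2 fold change 2.71, limma adjusted p = 0.0003). The growth arrest gene gadd45aa was at 5.20, 5.99, 10.7 and 18.5 FPKM in controls and 37.6, 40.6, 42.4 and 67.4 FPKM in mutants (log2 fold change 2.23). The ubiquitin ligase gene mdm2 was at 2.60 to 3.62 FPKM in the 4 controls and 7.45 to 13.0 FPKM in the 4 mutants (log2 fold change 1.40, limma adjusted p = 0.00214). None of these ranges overlapped between mutants and controls, whichever the stage.

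Smaller rises were called for phlda3, an Akt inhibitor gene (1.51), for bbc3, which encodes the death-promoting protein Puma (1.11), and for the repair gene ddb2 (0.65, all log2 fold changes). The fall was that of pmaip1, which encodes the death-promoting protein Noxa, at 52.5, 61.7, 31.5 and 23.8 FPKM in controls and 19.3, 22.9, 17.7 and 19.8 FPKM in mutants (log2 fold change -0.96, limma adjusted p = 0.0197). Its fall was -1.39 at 2 dpf and -0.53 at 2.5 dpf, and its call was lost without control replicate 1, mutant replicate 1 or mutant replicate 2 of 2 dpf (adjusted p of 0.0696, 0.0619 and 0.065). The 8 members not called included the arrest gene btg2 (-0.43), the sestrin gene sesn1 (-0.04), the ribonucleotide reductase gene rrm2b (-0.20) and the death effector gene baxa (0.50, all log2 fold changes). The summed level of the list was 508 to 673 FPKM in controls and 1912 to 3123 FPKM in mutants.

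**Figure D3:**
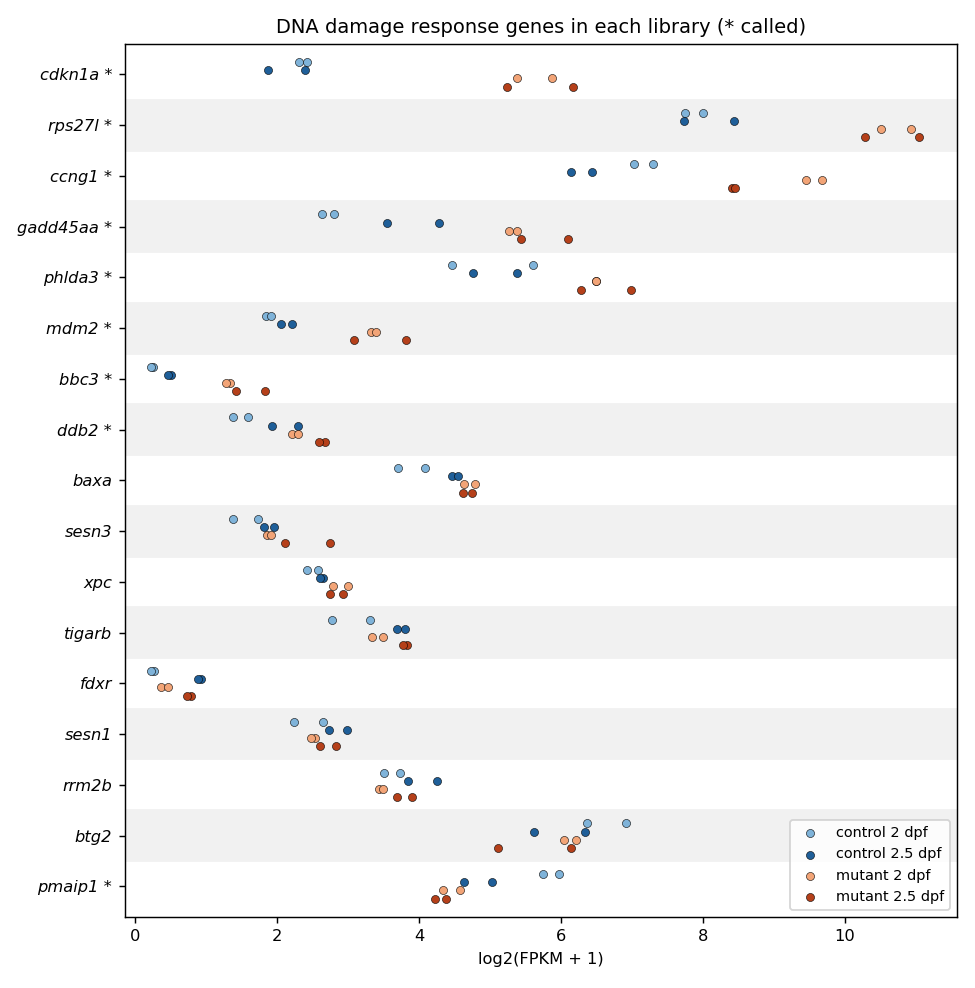
Level of the 17 tested DNA damage response genes in each library as log2(FPKM + 1), ordered by log2 fold change, with 1 point per library and an asterisk for called genes. The 8 called rises sit at the top, with mutant points right of the control points of the same stage, and pmaip1 sits at the bottom with mutant points to the left.

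Of 21 tested members of the Bcl2 family and caspase list, which shares bbc3, baxa and pmaip1 with the DNA damage list, 3 were called higher and 1 lower (19%, against 9.01% of all tested genes). The calls of bbc3 and pmaip1 are thus counted in both lists. The initiator caspase gene casp8 was at 1.60, 1.33, 1.96 and 1.80 FPKM in controls and 6.25, 5.87, 4.21 and 5.16 FPKM in mutants (log2 fold change 1.25, limma adjusted p = 0.00206). The Bok paralog bokb rose from 0.13 to 0.49 FPKM in controls to 0.76 to 2.27 FPKM in mutants (log2 fold change 1.02), a call lost without control replicate 1 of 2 dpf (adjusted p = 0.0525). Executioner casp3a (0.00), bcl2l1 (0.02) and apaf1 (0.32, log2 fold changes) were not called. Among cell cycle genes, 0 of 27 mitosis genes were called by limma (4 with an unadjusted p under 0.05), and 2 of 31 DNA replication identifiers were, cdc45 (0.60) and rfc5 (0.39), which became 1 under each rescaling.

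Of the methionine cycle, which supplies methyl groups, 3 of 17 tested members were called, all higher (17.6%, against 9.01% of all tested genes). The methionine adenosyltransferase-like gene mat2al (ENSDARG00000063665) was at 2.42 and 2.15 FPKM in controls against 21.3 and 23.7 FPKM at 2 dpf, and at 3.50 and 3.97 against 27.5 and 32.0 FPKM at 2.5 dpf. Its log2 fold change of 2.77 ± 0.12 (SE) had a limma adjusted p of 1.9e-05, among the smallest of all genes, while its relatives mat2aa (0.05) and mat2ab (0.41) were not called. Cth, which splits cystathionine to form cysteine, was at 13.5 to 29.8 FPKM in controls and 43.3 to 49.5 FPKM in mutants (log2 fold change 1.08). The methionine synthase gene mtr rose by 0.67, a call lost under both rescalings (adjusted p of 0.0599 and 0.0549) and without 5 of the single libraries.

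Genes linked to stem cell states were few in number here, and 2 of 10 tested were called higher and 1 lower (30%, against 9.01% of all tested genes). The telomerase gene tert was at 0.51, 0.41, 0.67 and 0.66 FPKM in controls and 2.38, 2.11, 2.97 and 3.14 FPKM in mutants (log2 fold change 1.22, limma adjusted p = 0.000332). Lin28a, an RNA-binding protein of early embryos, was at 1.14 to 1.47 FPKM in controls and 3.23 to 4.28 FPKM in mutants (log2 fold change 1.04, limma adjusted p = 0.00203). Both calls held in every alternative that tested them. With the replicate block, 3 members were called higher and 0 lower. The fall of klf4 (-0.42) was lost with the replicate block (adjusted p = 0.05) and without each of the 8 libraries in turn (adjusted p of 0.0609 to 0.102), and sox2 (0.00) was not called.

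Neural crest, crest guidance and dorsal arch genes made up further lists with many called members, most of them higher in the values as deposited. Called members of the ventral arch and joint lists were lower. The study singled out snai2, jag1b, dlx4a and nkx3.2 on these same samples, so their directions here are not independent evidence. From these samples it reported higher crest stemness, migration and dorsal arch genes and lower cartilage genes in mutants at both stages. The directions of the stem cell, neural crest, guidance, dorsal arch and cartilage lists are therefore not independent evidence either. It also reported the changes of snai2, jag1b and dlx4a by qPCR and in situ hybridization. Of 19 neural crest genes tested, 7 were called higher and 1 lower (42.1%, against 9.01% of all genes), which became 2 and 4 with median-ratio rescaling and 5 and 2 with quantile normalization. Leaving out single libraries gave 1 to 5 rises, the fewest without mutant replicate 1 of 2 dpf. The rising members were all transcription factor genes, and the early specifiers sox10 (-0.36), foxd3 (0.25) and tfap2a (0.00) were not called.

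The homeobox gene prrx1b, active in arch mesenchyme, was at 9.21, 15.5, 16.1 and 24.5 FPKM in controls and 34.9, 35.7, 54.3 and 37.9 FPKM in mutants (log2 fold change 1.32, limma adjusted p = 0.00777), and its call held in all 16 alternatives. Snai2 (ENSDARG00000040046), a zinc finger repressor of epithelial genes, was at 5.49 and 10.9 FPKM in controls against 16.7 and 18.5 FPKM at 2 dpf, and at 8.02 and 10.9 against 15.1 and 17.2 FPKM at 2.5 dpf (log2 fold change 0.90 ± 0.20 SE, limma adjusted p = 0.0273). The snai2 call was lost if either 2 dpf mutant library, the first 2.5 dpf control or the second 2.5 dpf mutant was left out (adjusted p of 0.065 to 0.0861). The other rises, of snai1a (0.70), twist1a (0.78), prrx1a (0.67), pax7b (0.62) and snai1b (0.51), were smaller. Calls of snai1a and twist1a were lost under median-ratio rescaling (adjusted p of 0.0954 and 0.115) and without 6 of the 8 single libraries each. The AP2 family gene tfap2c fell, from 1.32, 1.34, 2.82 and 4.99 FPKM in controls to 0.72, 0.47, 0.93 and 1.49 FPKM in mutants (log2 fold change -0.84), a call lost without 5 of the 8 single libraries (adjusted p of 0.0504 to 0.078). The sum of the whole neural crest list was 483 to 922 FPKM in controls and 768 to 889 FPKM in mutants, ranges that overlap.

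Receptors of the chemokine Cxcl12, which guides migrating crest cells, changed in both directions. Cxcr4a was at 2.47, 1.96, 1.43 and 1.45 FPKM in controls and 6.31, 7.05, 3.80 and 5.51 FPKM in mutants (log2 fold change 1.23, limma adjusted p = 0.00142). Its paralog cxcr4b was at 59.3, 41.9, 20 and 23.4 FPKM in controls and 21.7, 33.4, 11.2 and 11.4 FPKM in mutants (log2 fold change -0.87, limma adjusted p = 0.0154), lost without control replicate 1 of 2 dpf (adjusted p = 0.0531). The scavenging receptor gene ackr3b rose from 23.3 to 36.6 FPKM in controls to 45.5 to 48.4 FPKM in mutants (log2 fold change 0.69), and the ligand genes cxcl12a (0.05) and cxcl12b (0.25) were not called. In total, 5 of 22 tested identifiers of the crest guidance list were called higher and 1 lower (27.3%, against 9.01% of all tested genes). Median-ratio rescaling gave 4 rises and 2 falls, and quantile normalization 3 and 1. Leaving out single libraries gave between 1 rise, without mutant replicate 1 of 2 dpf, and 8 rises, without control replicate 2 of 2.5 dpf. The rises of ackr3a (0.65) and ephb3a (0.54) held in 8 of 15 and 8 of 16 alternatives.

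Called members of the dorsal arch list were all higher in mutants, though the list is mixed. It shares twist1a with the neural crest list. It also holds bmp2b and the Endothelin1 receptor gene ednraa, of pathways named above as ventral. Of 15 members of the dorsal arch list, 7 were called higher and 0 lower by limma (46.7%, against 9.01% of all tested genes), with 9 higher and 0 lower having an unadjusted p under 0.05. Under each rescaling 4 were called higher and 0 lower. Leaving out single libraries gave between 2 rises, without control replicate 1 of 2.5 dpf or either 2 dpf mutant library, and 8 rises, without control replicate 2 of 2.5 dpf. The Notch ligand gene jag1b (ENSDARG00000013168) was at 1.36 and 2.30 FPKM in controls against 6.14 and 4.40 FPKM at 2 dpf, and at 1.57 and 2.50 against 4.14 and 5.73 FPKM at 2.5 dpf. Both mutants stood above both controls at each stage (log2 fold change 1.06 ± 0.18 SE, limma adjusted p = 0.0104), and the call held in all 16 alternatives. Jag1b was the sole called member of the 22 tested Notch pathway genes, and the receptor gene notch2 (0.00) and the Notch targets hey1 (-0.08) and her6 (0.21) were not called. By qPCR of sox10+ cells, the paper reported higher hey1 in mutants at both stages.

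Postnb, which encodes a periostin of the extracellular matrix, was at 4.94, 9.74, 10.1 and 10.8 FPKM in controls and 17.8, 18.02, 22.1 and 22.4 FPKM in mutants (log2 fold change 1.14, limma adjusted p = 0.00787). Bmp2b, a Bmp ligand gene, was at 3.61, 6.97, 7.13 and 9.56 FPKM in controls and 13.3, 15.4, 12.6 and 17.9 FPKM in mutants (log2 fold change 1.06, limma adjusted p = 0.0203). Its call was lost without either 2 dpf mutant library, control replicate 1 of 2.5 dpf or mutant replicate 2 of 2.5 dpf (adjusted p of 0.0515 to 0.0684). The Endothelin1 receptor gene ednraa (0.78), the orphan nuclear receptor gene nr2f5 (0.78), twist1a (0.78) and six1b (0.55) were the other rises, and nr2f5 was lost under both rescalings (adjusted p of 0.0797 and 0.0721). Other dorsal genes, pou3f3a (0.13), pou3f3b (0.10), nr2f1a (-0.02) and nr2f2 (-0.01), were not called.

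Among 25 Bmp pathway genes, 4 were called higher (16%, against 9.01% of all tested genes). These were bmp2b, the gene of the secreted antagonist follistatin, fsta (1.47), the inhibitory Smad gene smad6a (0.66) and the decoy receptor gene bambia (0.59), and 3 of these 4 products restrain signaling. Fsta was at 2.04, 2.1, 1.71 and 4.98 FPKM in controls and 10.3, 9.95, 5.45 and 10.24 FPKM in mutants, so that the lower 2.5 dpf mutant lay close above the higher control. None of the 4 was called without mutant replicate 2 of either stage, and the Bmp response genes id1 (0.38), id2a (-0.17) and id3 (-0.14) were not called.

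Of 14 ventral arch genes, dlx4a (ENSDARG00000011956) was the sole called member (7.14%, against 9.01% of all tested genes). The levels of this Distal-less homeobox gene were 64.4 and 146 FPKM in controls against 31.2 and 42.4 FPKM in mutants at 2 dpf, and 82.5 and 119 against 41.3 and 29.1 FPKM at 2.5 dpf (log2 fold change -1.44 ± 0.26 SE, limma adjusted p = 0.0129). Every mutant lay below every control, and the call held in all 16 alternatives. With the replicate block, 3 other members of the list were called higher. Its relatives dlx3b (-0.25), dlx4b (-0.26), dlx5a (-0.16) and dlx6a (0.64), the ventral factor gene hand2 (0.41) and the ligand gene edn1 (-0.14) were not called.

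Both called members of the 8 tested joint genes fell (25% called, against 9.01% of all tested genes). Nkx3.2, a homeobox gene of the jaw joint, was at 17.5, 35.3, 10.5 and 18.7 FPKM in controls and 6.81, 6.73, 4.03 and 7.15 FPKM in mutants (log2 fold change -1.49, limma adjusted p = 0.0138). The Iroquois gene irx7, which keeps joint cells from becoming cartilage, was at 5.36, 9.08, 6.87 and 9.05 FPKM in controls and 2.96, 1.52, 2.79 and 2.79 FPKM in mutants (log2 fold change -1.29, limma adjusted p = 0.00698). Both calls held in all 16 alternatives. Gdf5 (-0.22) and barx1 (-0.52) were not called.

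Cartilage matrix genes had negative values in most members, yet few passed the test. Of 17 tested, 1 was called lower and 1 higher (11.8%, against 9.01% of all tested genes). By unadjusted limma p under 0.05, 8 were lower and 1 higher. Mutants lay wholly below controls at both stages in 5 of the 17, against 5.21% of all tested genes. Col2a1a, the main cartilage collagen gene, was at 7.79, 14.6, 23.5 and 58.7 FPKM in controls and 5.42, 5.04, 9.28 and 13.7 FPKM in mutants (log2 fold change -1.27 ± 0.31 SE, limma adjusted p = 0.0389). The call was lost without control replicate 2 of 2 dpf or without any of the 4 mutant libraries (adjusted p of 0.0798 to 0.0953), and held in all other leave-outs. In whole embryos, the paper reported lower col2a1a in the mutant lower jaw by in situ hybridization, and barely detectable Col2 immunostaining in mutant arches. With the replicate block, 5 members were called lower and 0 higher. The rise of col11a1b (0.50) held in 2 of 16 alternatives. The spread was set in part by control replicate 2 of 2.5 dpf, in which the summed level of the list was 401 FPKM, against 72.1 to 157 FPKM in the other controls and 70.7 to 143 FPKM in the mutants. Of 10 tested members of a separate list of cartilage and bone factors, 2 were called lower, nkx3.2 and runx2b, and 0 higher (20%, against 9.01% of all tested genes). By unadjusted limma p under 0.05, 5 were lower and 0 higher. Median-ratio rescaling called 4 lower and quantile normalization 3. Mutants lay wholly below controls at both stages in 4 of the 10. The gene of the bone formation factor Runx2, runx2b, fell, from 5.11, 8.87, 5.35 and 3.38 FPKM in controls to 1.41, 1.95, 1.53 and 3.08 FPKM in mutants (log2 fold change -1.13, limma adjusted p = 0.0308), a call lost without 6 of the single libraries (adjusted p of 0.0599 to 0.0953). The chondrocyte regulator gene sox9a (-0.63) was not called.

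**Figure D4:**
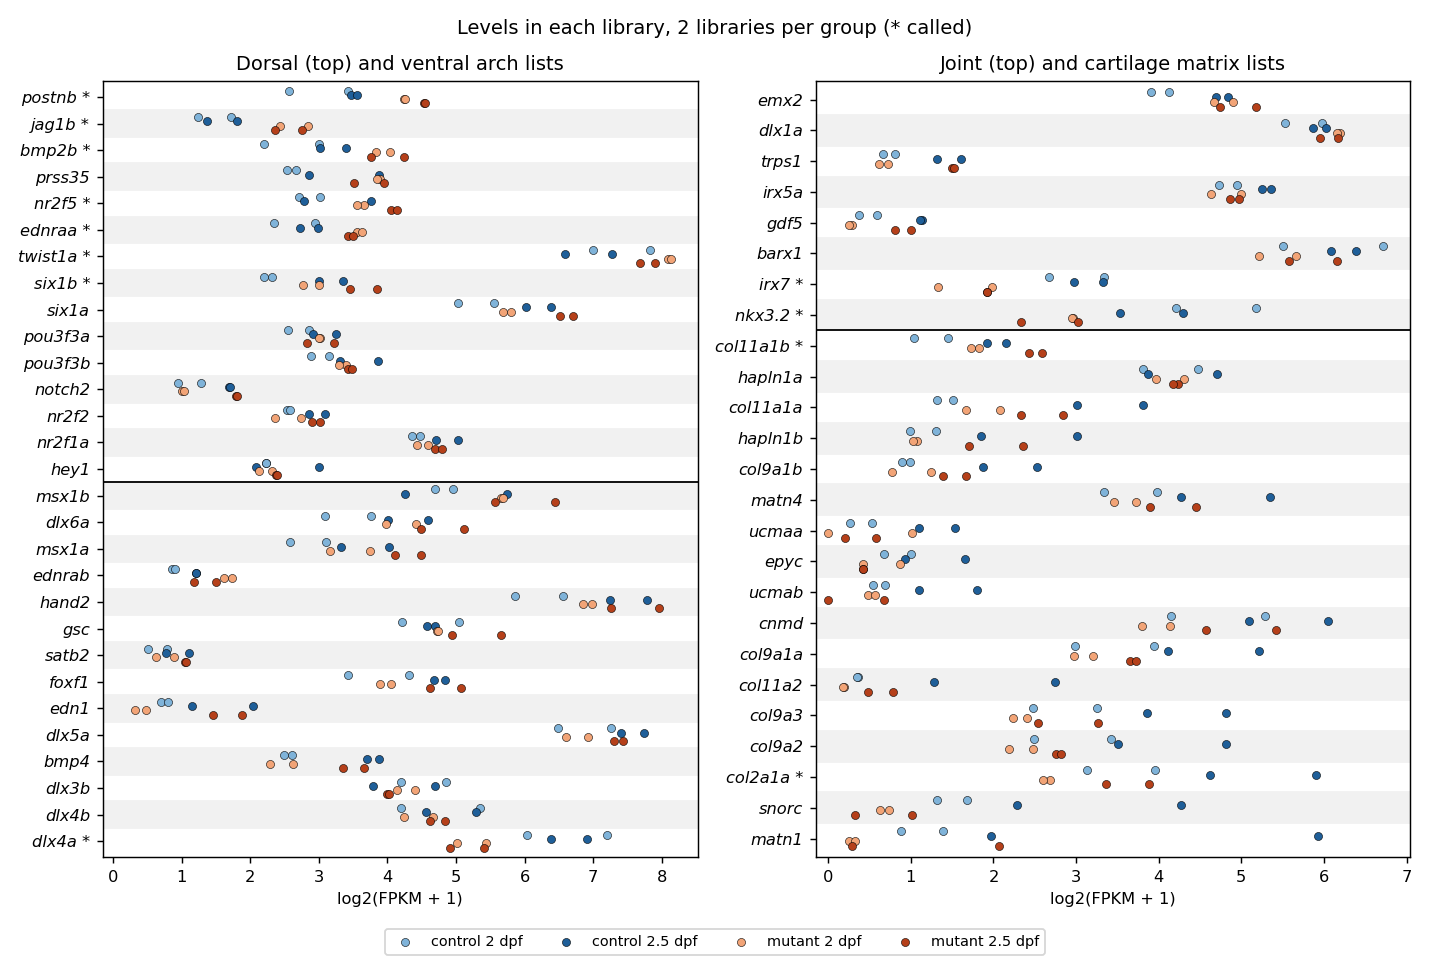
Levels in each library as log2(FPKM + 1) for the dorsal and ventral arch lists (left, separated by a line) and the joint and cartilage matrix lists (right), ordered by log2 fold change within a list, with 1 point per library and an asterisk for called genes. Called genes of the dorsal arch list have mutant points to the right of controls of the same stage, and dlx4a, nkx3.2, irx7 and col2a1a have them to the left.

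The largest falls were led by genes of the retina. Photoreceptors and bipolar cells of the eye arise from the neural tube and not from neural crest, and Crx, Otx5, Nr2e3 and Vsx1 are transcription factors of these cells. The phototransduction subunit gene gnb3a (ENSDARG00000004358) was at 29.9 and 20.4 FPKM in controls against 0.03 and 0.38 FPKM in mutants at 2 dpf, and at 35.8 and 54.8 against 0.37 and 1.53 FPKM at 2.5 dpf (log2 fold change -4.52 ± 0.24 SE, limma adjusted p = 3.37e-05). Every mutant was far below every control. Crx was at 29.4, 17.04, 22.7 and 29.2 FPKM in controls and 1.18, 2.45, 1.73 and 2.90 FPKM in mutants (log2 fold change -3.06, limma adjusted p = 0.00022). Vsx1 was at 52.0, 21.3, 55.1 and 52.8 FPKM in controls and 2.44, 4.47, 7.42 and 4.94 FPKM in mutants (log2 fold change -2.97, limma adjusted p = 0.000536).

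Otx5 (-1.98) and nr2e3 (-1.70) fell too, and opn1sw2, the blue opsin gene, rose from 0.56 to 3.62 FPKM in controls to 4.07 to 10.7 FPKM in mutants (log2 fold change 1.59, limma adjusted p = 0.0114). The list thus had 5 falls and 1 rise among 11 tested members (54.5%, against 9.01% of all tested genes). These counts of falls and rises were the same under both rescalings, the replicate block and each leave-out of a library. Not all retina genes were present or fell, since rx1 (0.12) was not called and the cone transducin gene gnat2 was at 0 to 0.22 FPKM in all libraries. The summed level of the list was 68.9 to 176 FPKM in controls and 12.7 to 39.6 FPKM in mutants. Pax10 (-2.71), bhlhe23 (-2.46) and rs1a (-2.43), known from retinal cells, were also among the 15 largest falls. Further eye genes named after their values were seen were otx2b, at 5.89 to 13.3 FPKM in controls and 1.58 to 2.43 FPKM in mutants (log2 fold change -1.89), rx3 (-1.32), pax6a (-1.24) and atoh7 (-1.15). The paper reported small heads and small eyes in the double homozygotes. The part that different amounts of eye tissue in the sorted samples had in these values was not tested.

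Lens genes had negative values, but the libraries spread widely. Of 7 tested, the fiber channel gene mipb alone was called (14.3%, against 9.01% of all tested genes). It was at 2.25, 1.31, 0.58 and 1.28 FPKM in controls and 0.18, 0.14, 0.10 and 0.49 FPKM in mutants (log2 fold change -0.90, limma adjusted p = 0.0271). Without mutant replicate 2 of 2.5 dpf, in which the list summed to 107 FPKM against 7.26 to 64.4 FPKM in the other mutants, all 7 were called lower, and with the replicate block 5 were. Control sums ranged from 55.5 to 281 FPKM. The mipb call was lost without 6 of the other single libraries (adjusted p of 0.0559 to 0.0887). The crystallin gene crygm2d13, among the 15 largest falls, was at 58.5, 38.2, 11.5 and 11.1 FPKM in controls and 0.79, 11.1, 1.95 and 2.65 FPKM in mutants (log2 fold change -2.64). Its call was lost without either 2 dpf control (adjusted p of 0.0748 and 0.054). All 22 tested crygm identifiers had negative values, and 6 were called lower, against 1.99% of all tested genes. Their sequences are near copies of each other, so how reads were divided between them is uncertain.

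The myeloid list held a single called member among 13 tested (7.69%, against 9.01% of all tested genes), while some genes known from macrophages were among the largest falls. The chemokine gene ccl34b.1, expressed in zebrafish macrophages and microglia, was at 349, 577, 1209 and 704 FPKM in controls and 31.9, 93.0, 115 and 32.6 FPKM in mutants (log2 fold change -3.45, limma adjusted p = 0.00385). Lgals3bpb was at 49.4, 62.7, 186 and 97.9 FPKM in controls and 2.45, 9.49, 22.6 and 3.83 FPKM in mutants (log2 fold change -3.45). Both were among the 15 largest falls, and both calls held in all 16 alternatives. The pore-forming macrophage gene mpeg1.1 was at 34.7, 44.7, 59.6 and 75.7 FPKM in controls and 16.4, 30.1, 39.0 and 28.7 FPKM in mutants (log2 fold change -0.89, limma adjusted p = 0.0304), lost without 6 of the single libraries (adjusted p of 0.0541 to 0.0867).

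Of the other 12 myeloid genes tested, 0 were called by limma, and 2 with the replicate block. The uncalled members included lyz (-0.48), mpx (0.04), spi1b (-0.08) and mfap4 (-0.79). The list summed to 10718 to 42986 FPKM in controls and 13387 to 25482 FPKM in mutants, and lyz makes up most of that sum. Several macrophage genes were looked up after their values were seen. The complement genes c1qb (-2.25) and c1qc (-2.08) and the lysozyme gene lygl2 (-1.62) were lower. The receptor gene csf1rb was at 2.87, 3.40, 9.38 and 4.99 FPKM in controls and 0.56, 0.94, 2.08 and 1.07 FPKM in mutants (log2 fold change -1.44, limma adjusted p = 0.00601). Its paralog csf1ra, a member of the xanthophore list and not of the myeloid count, fell by 0.67 on the log2 scale. The csf1ra call was lost without 7 of the 8 single libraries (limma adjusted p of 0.0515 to 0.118).

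The ligand genes of these receptors moved in the opposite direction. The gene csf1a was at 1.65, 2.27, 1.74 and 2.50 FPKM in controls and 8.26, 6.45, 7.34 and 6.72 FPKM in mutants (log2 fold change 1.44, limma adjusted p = 0.000872). The gene csf1b was at 5.98, 8.08, 7.88 and 14.3 FPKM in controls and 23.3, 26.5, 27.2 and 59.9 FPKM in mutants (log2 fold change 1.76, limma adjusted p = 0.00588). All 4 mutants were above all 4 controls for both ligands and below the controls of their own stage for both receptors. Another such pair, also picked after its values were seen, was the peptide ligand gene apela (1.96) and the receptor gene aplnrb (-1.30).

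The rest of the 15 largest falls lay outside these groups. The matrix protein gene emilin3a was at 5.59, 20.2, 9.14 and 62.9 FPKM in controls and 1.83, 0.69, 1.13 and 1.80 FPKM in mutants (log2 fold change -2.91, limma adjusted p = 0.0181). The growth factor binding protein gene fgfbp2b was at 45.6, 129, 52.1 and 192 FPKM in controls and 14.7, 9.03, 10.3 and 14.4 FPKM in mutants (log2 fold change -2.79), and samd10a at 7.30, 13.7, 14.1 and 54.4 FPKM against 1.58, 2.60, 3.31 and 2.99 FPKM (log2 fold change -2.33). In all 3 genes, replicate 2 of both control groups was the higher replicate. The emilin3a call was lost without replicate 2 of the 2 dpf controls or of the 2 dpf mutants (adjusted p of 0.0512 and 0.059). The locus si:ch211-255g12.6 was at 7.41, 11.2, 2.98 and 11.98 FPKM in controls and is listed at 0 in all 4 mutant libraries, and ndrg1b (-2.67) and BX539325.1 (-2.41) complete the set.

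Among the remaining lists, to be read against 9.01% called of all tested genes, the interferon list had 2 rises, isg15 and irf9 (0.61), and 1 fall, irf7 (-0.78), among only 6 tested members (50%), and 6 further symbols in the tables were below the filter, including the interferon-induced genes mxa, mxb and rsad2 at 1.03 FPKM or less in all libraries. The irf9 call was lost without 5 of the single libraries and that of irf7 without 5 (adjusted p of 0.0628 to 0.0865 and 0.0546 to 0.0882). Of 11 tested Schwann cell and glia genes, 1 was called, and it was lower (9.09%). This was olig2, an oligodendrocyte and motor neuron factor gene, at 77.8 to 157 FPKM in controls and 25.2 to 78.4 FPKM in mutants (log2 fold change -1.24). The olig2 call was lost without control replicate 1 of 2 dpf (limma adjusted p = 0.0511). The proneural gene neurod1 fell by 1.16 on the log2 scale, lost without 7 of the 8 single libraries (adjusted p of 0.0501 to 0.0736). Single rises were those of the immediate early factor gene egr4 (1.51), the ear gene oc90 (1.18) and the muscle determination gene myod1 (1.16), in lists of 20, 7 and 16 tested members with otherwise no call. By unadjusted limma p under 0.05, the early response list had 1 higher and 5 lower, the ear list 1 and 2, and the muscle list 2 and 0. These and the later counts by unadjusted p are to be read against 4301 of all 16703 genes in either direction. Median log2 fold changes were -0.31, -0.23 and 0.24, and the muscle median was -0.47 at 2 dpf and 0.97 at 2.5 dpf. Of 22 oxidative stress genes, 2 were called higher, txn (0.81) and sod2 (0.42), which became 5 with the replicate block and 0 after median-ratio rescaling. Pigment cell lists held 2 rises among 12 melanophore genes, mlpha (0.80) and tspan10 (0.72). Among 8 xanthophore genes they held 2 rises, pax7b and scarb1 (0.45), and 1 fall, that of csf1ra given above (37.5%). Both xanthophore rises were lost under each rescaling, and without either 2.5 dpf mutant, control replicate 2 of 2.5 dpf or mutant replicate 1 of 2 dpf. Of 19 neuron genes, 2 were called higher and 1 lower (15.8%). The rises were those of the neurofilament genes nefma (0.50) and nefmb (0.69), and the fall was that of neurod1 given above. Both rises were lost under each rescaling, which called 0 members of the list higher and 2 lower. The ribosome biogenesis, sterol, ionocyte and blood vessel lists (19, 11, 7 and 4 tested) had 1 rise each, of polr1a (0.65), sc5d (0.46), foxi1 and egfl7 (0.81). By unadjusted limma p under 0.05, 14 of the 19 ribosome biogenesis genes were higher and 0 lower, against 4301 of all 16703 genes in either direction. Their median log2 fold change was 0.40 (0.089 over all genes), and 0.23 and 0.30 under median-ratio and quantile rescaling. The sterol list had 3 higher and 1 lower by unadjusted p, ionocyte 1 and 0, and blood vessel 2 and 0. The foxi1 call held in all 16 alternatives, polr1a was lost without control replicate 1 or either mutant of 2 dpf (adjusted p of 0.0547 to 0.0629), and sc5d and egfl7 were lost under both rescalings (adjusted p of 0.0769 to 0.108) and held in 4 and 6 of the 16 alternatives. Lists with 0 members called by limma were those of heat shock (2 of 21 with an unadjusted p under 0.05), of the unfolded protein and amino acid response (4 of 24), of glycolysis (1 of 16), of iridophores (2 of 12), of red blood cells (1 of 14) and of skin (1 of 19). With the replicate block the iridophore list gained 2 falls, and under the rescalings the skin list gained 1 fall and the unfolded protein list 1 or 2 falls.

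**Figure D5:**
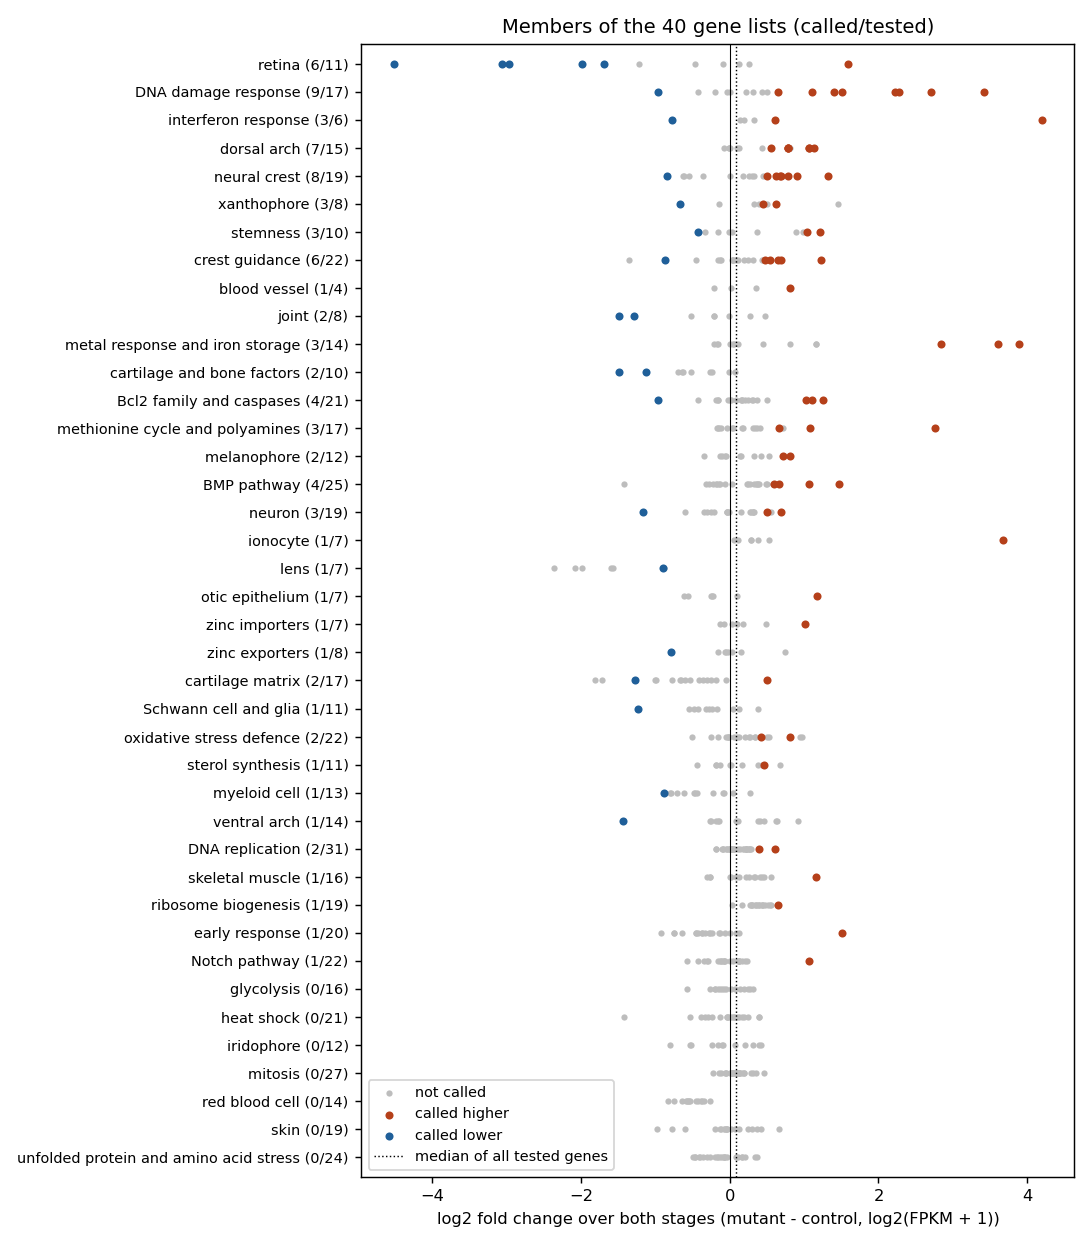
Log2 fold change over both stages (mutant minus control, log2(FPKM + 1)) of every tested member of the 40 gene lists, with 1 point per identifier, red for called higher, blue for called lower and grey for not called. Lists are ordered by their called share, from retina (6 of 11) and DNA damage response (9 of 17) at the top to lists with 0 called, and the dotted line marks the median of all tested genes, 0.089.

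Called genes were also read in chromosome order, as the mutant and sibling chromosomes around the targeted loci may differ in other variants, which was not tested. Of 14067 tested genes that could be placed by name in the order of RefSeq GRCz12tu, the 40 nearest to slc30a1a held 6 called genes, all higher (15%), and the 100 nearest held 14 (14%). The share called was 9.01% over all tested genes, placed or not, and was not computed for placed genes alone. The 40 nearest to slc30a1b held 3 (7.5%). Shared rises were more often next to another shared rise than tested genes in general (15.7% against 11.6%), as were shared falls next to shared falls (7.84% against 3.76%), given as a description with no test.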

How the data were processed

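RNA of sox10+ cells sorted from slc30a1a-/-;slc30a1b-/- mutants and sibling controls at 2 and 2.5 dpf was amplified by SMART-seq and sequenced in pairs. The authors deposited FPKM values, rounded to 2 decimals, in 1 table per stage, and their notes name HISAT, StringTie, edgeR and GRCz11, with versions not given in the sources used here. FPKM scales each library to its own total, so genes that take a large share lower all others. The values did not step in whole reads, so the depth is unknown and no counting interval is given.

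The tables were joined by gene identifier, genes with a mean under 0.5 FPKM were left out, and a pseudocount of 1 was added before log2. Genotype and stage were fitted as additive terms with limma 3.58.1 in R 4.3.3, with a variance trend and Benjamini-Hochberg adjustment over all 16703 genes. On 1 simulated set with independent normal noise, 100 genes were changed by 1 on the log2 scale and 100 by 2. Of these, 67% and 99% were recovered, and 5.68% of calls were false. The changed genes were drawn only from the more abundant genes, so recovery among less abundant genes was not measured. They were also far fewer than the genes called here. Every mutant-control difference lies within a table, and stage and table cannot be told apart. Replicate numbers were checked for pairing: deviations of same-numbered libraries had r = 0.146 at 2 dpf and r = 0.373 at 2.5 dpf, where 2 pairs of a stage mirror each other, so the numbers may mean no more than a name. Alternatives were another pseudocount, other filters, median-ratio and quantile scaling, no variance trend, the replicate block, the mean of the stage effects and leaving out each library.

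The members and the 40 gene lists were chosen with earlier results of these data known. A few list members are not reported here, and the list counts leave them out. Named genes were the targets, the 15 largest shared rises and falls, mt2 and up to 5 shared members of each list by size. Other list members are named to account for their list, and genes picked after their values were seen are said to be so. No columns of other samples were found in the tables.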

Additional observations from a re-analysis of the deposited data

How the results depend on the processing

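Counts of calls moved most with the single libraries. The 1505 called genes became 661 to 1422 when 1 library was left out, with 525 to 1122 higher and 136 to 300 lower, and the lowest total came without mutant replicate 1 of 2 dpf. The genes called lower were 554 after median-ratio rescaling and 548 after quantile normalization, against 332, and the genes called higher were 692 after median-ratio rescaling and 794 after quantile normalization, against 1173. A minimum mean of 2 FPKM gave 990 calls of 11037 genes tested, 756 of them higher and 234 lower. Genes not overlapping at both stages numbered 1705 below after quantile normalization, and 4429 to 5697 in all without 1 library (3189 to 4526 above, 1064 to 1541 below), where fewer libraries make separation easier. The interaction test called 1 gene with a pseudocount of 0.1, and 0 to 1 without 1 library. With the replicate block within stage, 1892 genes were called, 1409 higher and 483 lower, and the block ended the calls of rfc5, klf4 and col11a1b among the named genes. Of 96 named genes, 54 kept their call in every alternative that tested them. No named gene changed sign under either rescaling, and under the other alternatives the choice of shared genes fixed the sign. The balance of separated genes turned under median-ratio rescaling (1760 above, 1878 below), as did that of calls in the neural crest list (from 7 higher and 1 lower to 2 and 4). The causes of these changes were not tested. The unknown depth limits what can be said of genes near 0 FPKM.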
